A study of Mus musculus with 14 samples.

Results

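The Hox genes encode homeodomain transcription factors that give cells along the head-to-tail axis their positional identity. Every row of the deposited expression table with a Hox cluster gene symbol was taken, which gave 39 genes of 22798 in all. They comprised 11 genes of HOXA, 10 of HOXB, 9 of HOXC and 9 of HOXD, with paralog numbers running up to 13. Values were FPKM, a count of sequenced fragments corrected for how long the transcript is and how many fragments the library had, so levels can be compared between genes per length. Of the 39 genes, 18 reached at least 1 FPKM in at least 3 of the 14 libraries and were tested, among 12694 genes that did so. The tested members included Hoxa2 to Hoxa5, Hoxb2 to Hoxb8, Hoxc4, Hoxc5, Hoxc6, Hoxc8, Hoxd3 and Hoxd8.

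The libraries were made from epithelial cells of mouse embryonic stomachs at E14.5. The hindstomach, lined later by glandular epithelium, gave 5 libraries of the genotype G4 cKO mutant (replicates 1 to 5) and 3 of the genotype G4 cKO control (replicates 2, 3 and 4). The forestomach, lined later by squamous epithelium, gave 3 libraries of the genotype G4 cKI mutant (replicates 1, 2 and 4) and 3 of the genotype G4 cKI control (replicates 2, 3 and 5). The series title reads these as conditional knockout and conditional knock-in of Gata4, which encodes a GATA-family transcription factor active in foregut endoderm. The labels call both control groups wild type and name neither the Cre driver nor the alleles. They also do not say whether the libraries of a group came from separate animals, so the p-values measure the spread between these libraries, which may be technical. The 2 regions' controls belong to different crosses, and so an effect of region and an effect of cross cannot be told apart.

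In each Hox cluster the genes lie in the order of their paralog number. Low numbers are used first and farthest towards the head, and high numbers later and nearer the tail, a relation called collinearity. In the developing gut, Hox genes are known chiefly from the mesenchyme, the connective and muscle layer around the epithelium, and from cells of the enteric nervous system. Hox proteins bind DNA together with the TALE homeodomain proteins of the Pbx and Meis families. Retinoic acid signalling activates low-numbered Hox genes, and Polycomb and Trithorax complexes hold the clusters in silent and active states.

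Sequence before the transcription start is shown for 4 members that carry the results below. Hoxa2, Hoxa5 and Hoxb4 rose in the hindstomachs labelled knockout, and Hoxb8 is a high-numbered gene of the forestomach. The windows are the 250 bases upstream of the RefSeq start (assembly GRCm38.p6), Hoxa2 at chr6:52164832-52165081 and Hoxa5 at chr6:52204588-52204837, both on the minus strand, and Hoxb4 at chr11:96318017-96318266 and Hoxb8 at chr11:96281655-96281904, both on the plus strand. Capitals mark a match, on either strand, to a GATA core (GATAA), a MEIS core (TGACAG) or a PBX-HOX core (TGATTNAT).
Hoxa2: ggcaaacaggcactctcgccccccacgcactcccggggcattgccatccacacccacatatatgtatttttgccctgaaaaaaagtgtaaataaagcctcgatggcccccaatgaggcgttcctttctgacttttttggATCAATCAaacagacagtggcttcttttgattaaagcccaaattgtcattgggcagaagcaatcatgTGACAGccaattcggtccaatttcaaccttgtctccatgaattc
Hoxa5: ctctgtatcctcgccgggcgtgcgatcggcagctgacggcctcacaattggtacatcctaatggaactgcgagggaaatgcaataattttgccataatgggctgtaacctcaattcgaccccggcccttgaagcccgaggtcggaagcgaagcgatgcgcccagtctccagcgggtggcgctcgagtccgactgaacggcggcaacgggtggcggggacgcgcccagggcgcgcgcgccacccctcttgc
Hoxb4: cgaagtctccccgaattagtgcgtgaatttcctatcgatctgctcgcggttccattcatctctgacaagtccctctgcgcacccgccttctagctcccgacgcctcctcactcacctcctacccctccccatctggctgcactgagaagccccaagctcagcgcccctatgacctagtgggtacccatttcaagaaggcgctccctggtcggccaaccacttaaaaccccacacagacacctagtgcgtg
Hoxb8: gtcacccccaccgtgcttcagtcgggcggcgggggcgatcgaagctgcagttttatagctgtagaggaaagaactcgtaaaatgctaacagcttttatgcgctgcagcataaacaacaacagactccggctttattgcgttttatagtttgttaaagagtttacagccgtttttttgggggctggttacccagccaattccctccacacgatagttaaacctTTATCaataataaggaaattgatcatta

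The Hoxa2 window holds 1 PBX-HOX match and 1 MEIS match, the Hoxb8 window holds 1 GATA match, and the Hoxa5 and Hoxb4 windows hold none of these letters. RefSeq promoter entries matched 22 of the 39 members, with 24 entries. A GATA core was present in 5 of the 24 windows (20.8%), against 22.6% of 32851 promoters of the same length. The MEIS core was present in 2 of the 24 windows (8.33%) and 15.9% of all promoters. The PBX-HOX core was also present in 2 of the 24 (8.33%), against 2.82% of all promoters. Those windows belong to Hoxa2 and to Hoxd11, which never exceeded 0.0288 FPKM. Whether these shares differ was not tested. No match overlapped another in the member windows.

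Gata4 itself was read first as a check on the labels. It was listed at 16.87, 19.36, 13.02, 32.06 and 59.63 FPKM in the libraries labelled knockout 1 to 5, against 65.66, 61.55 and 64.90 FPKM in hindstomach controls. The library labelled knockout 5 thus stood near the control level. The forestomachs labelled knock-in had Gata4 at 0.402, 0.319 and 1.27 FPKM, against 4.50, 1.33 and 0.573 FPKM in forestomach controls, so no added Gata4 transcript was seen at that label. The mutant libraries are therefore named by their labels throughout. Absolute depth is unknown, and relative depth, estimated from the spacing of low values, spanned 48.4% to 100% of the deepest library. Each library's log2 values also leaned on transcript GC content, with slopes between -0.84 and 0.82 log2 units per 10% GC.

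Hox transcripts were measured in all 14 libraries, and those above 0.1 FPKM came from paralog numbers up to 9. The 12 genes numbered 10 to 13 never exceeded 0.0868 FPKM, the value of Hoxa10 in the library labelled knockout 2. Hoxb13, Hoxc10, Hoxc11, Hoxc12 and Hoxd12 were listed at 0 in every library. Of the 15 genes numbered 1 to 5, 12 passed the filter, and of the 12 numbered 6 to 9, 6 did. The highest single values were 52.2 FPKM of Hoxc4 and 29.1 FPKM of Hoxc6, both in forestomach controls.

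The extent of Hox expression differed between the groups cluster by cluster. Members with a group mean of at least 1 FPKM numbered 14 in hindstomachs labelled knockout and 12 in hindstomach controls, and 16 in forestomachs labelled knock-in and 20 in forestomach controls. In the hindstomach the highest-numbered such genes were Hoxa5, Hoxb7, Hoxc5 and Hoxd8 in the labelled knockouts, and Hoxa5, Hoxb5, Hoxc5 and Hoxd3 in controls. In the forestomach they were Hoxa5, Hoxb8 and Hoxc8 in the labelled knock-ins, where no HOXD gene had a mean of 1 FPKM or more, and Hoxa7, Hoxb9, Hoxc8 and Hoxd8 in controls.

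**Figure D1:**
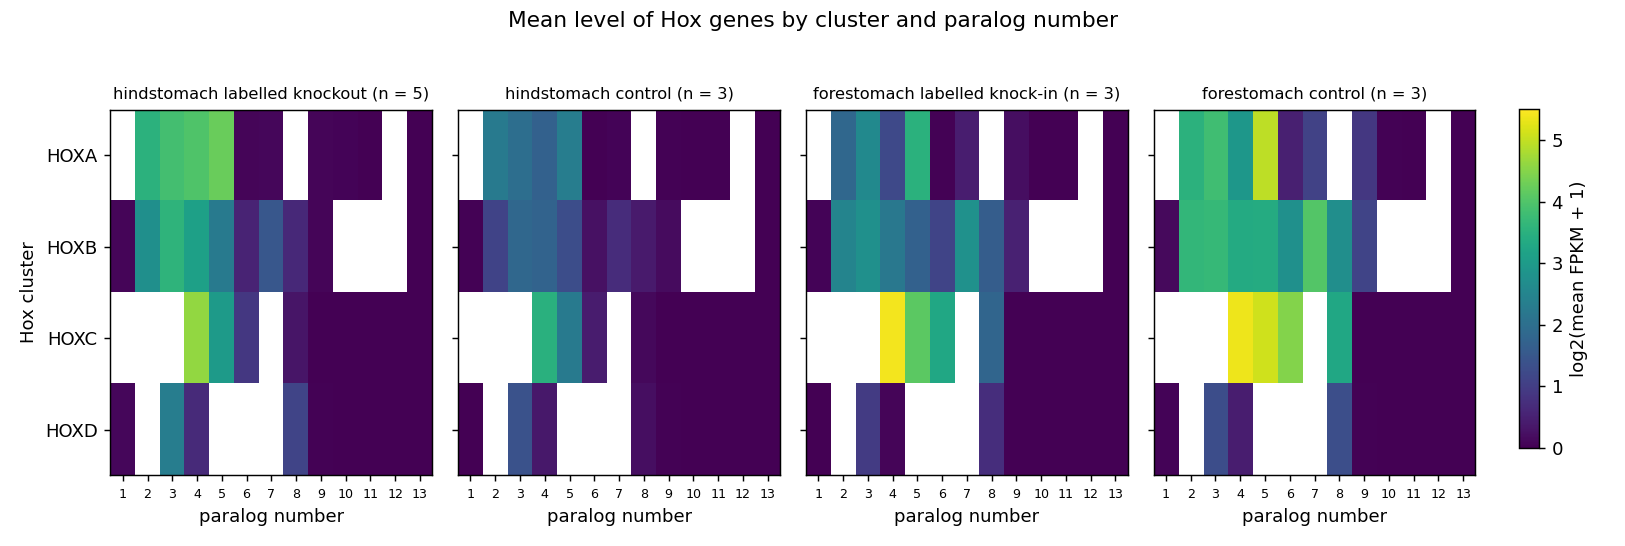
Mean level of Hox genes as log2(mean FPKM + 1), with a row per cluster and a column per paralog number, in the 4 groups; white marks positions with no gene in the mouse clusters or not shown here. Genes numbered 2 to 5 of HOXA and HOXB are lit in every group, and genes numbered 6 to 9 stand out in the forestomach panels, with 20 members at a mean of 1 FPKM or more in forestomach controls and 12 in hindstomach controls.

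Summed over members, paralogs 1 to 5 stood at 118, 146, 125, 128 and 101 FPKM in the libraries labelled knockout, against 32.1, 58.5 and 24.2 FPKM in hindstomach controls. The same sum was 100, 84.6 and 101 FPKM in the forestomachs labelled knock-in, against 185, 153 and 202 FPKM in forestomach controls. Every labelled knockout thus lay above every hindstomach control, and every labelled knock-in below every forestomach control. Paralogs 6 to 9 summed to between 2.83 and 6.36 FPKM in labelled knockouts and to between 0.820 and 3.39 FPKM in hindstomach controls, ranges that overlap. In the forestomach they summed to between 14.2 and 28.7 FPKM in labelled knock-ins and to between 59.7 and 65.0 FPKM in controls.

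As a share of all Hox FPKM, paralogs 6 to 9 took 4.13% ± 0.911 in labelled knockouts (SD, n = 5) and 4.38% ± 1.10 in hindstomach controls (SD, n = 3). They took 18.3% ± 3.87 in labelled knock-ins and 25.8% ± 3.59 in forestomach controls (SD, n = 3 each). The hindstomach groups overlapped in this share. The highest labelled knock-in, at 22.1%, lay just below the lowest forestomach control, at 22.8%.

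**Figure D2:**
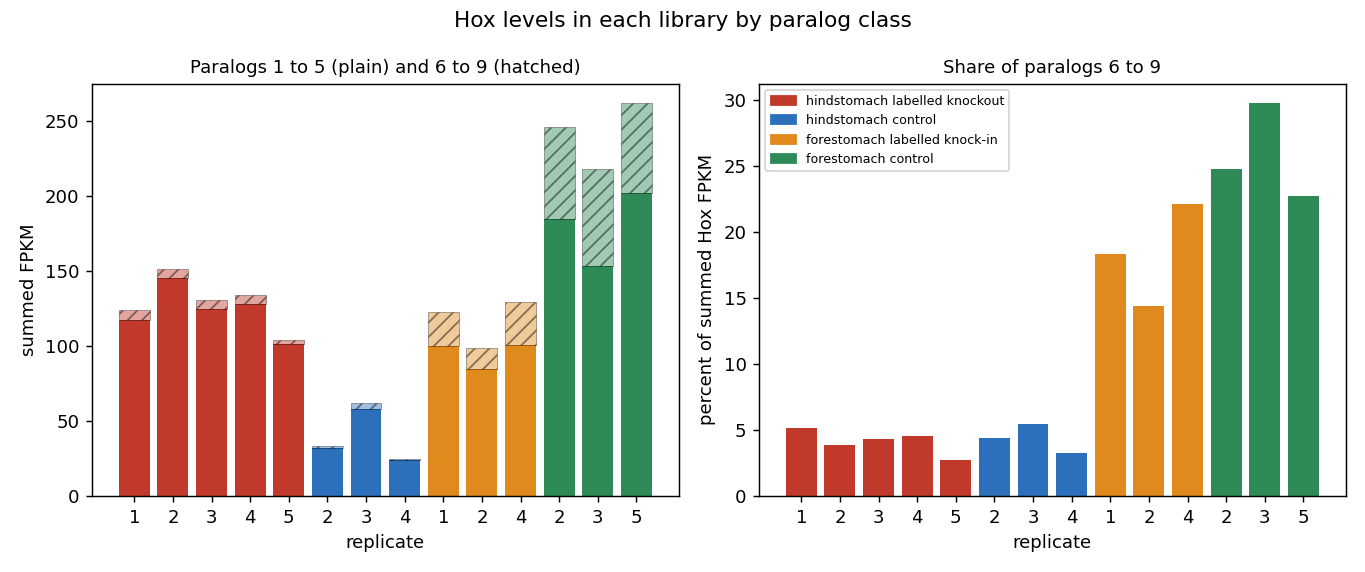
Left, summed FPKM of Hox paralogs 1 to 5 (plain) and 6 to 9 (hatched) in each library; right, the percent of summed Hox FPKM from paralogs 6 to 9. Colours give the groups and numbers the replicates. Paralogs 1 to 5 reach 101 to 146 FPKM in labelled knockouts and 24.2 to 58.5 FPKM in hindstomach controls, while the share of paralogs 6 to 9 is 2.71% to 5.13% in the labelled knockouts and 3.28% to 5.48% in these controls.

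The first comparison asked how Hox levels differ in the hindstomach when Gata4 is targeted. Of the 18 tested members 8 rose in the labelled knockouts and 0 fell, and all 18 log2 fold changes were above 0. Across all tested genes 13.2% passed in this comparison, 6.96% as higher and 6.28% as lower. The 8 that rose were Hoxa2, Hoxa3, Hoxa4, Hoxa5, Hoxb2, Hoxb3, Hoxb4 and Hoxc4, every one of them numbered 2 to 5. Fold changes are log2 differences of FPKM + 1, which understate changes of genes with low values, and genes were called at a limma adjusted p under 0.05. The members' median was 1.06, against -0.08 over all tested genes.

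Hoxa4, a gene of cervical vertebral patterning, showed the highest fold change of the members. Its FPKM was 13.2, 15.2, 13.8, 17.1 and 15.4 in labelled knockouts 1 to 5, against 1.97, 3.85 and 1.05 in hindstomach controls 2, 3 and 4. The 5 labelled knockouts lay close together and all far above the controls. The log2 fold change was 2.36 (SE 0.28, adjusted p = 0.000496).

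Hoxa5, which the mouse needs in lung and stomach mesenchyme, had 17.4, 21.2, 19.9, 18.3 and 13.1 FPKM in labelled knockouts, against 3.03, 7.15 and 2.01 FPKM in hindstomach controls. The lowest labelled knockout, replicate 5, was still above the highest control, replicate 3. Hoxa5 rose by 2.02 (SE 0.33, adjusted p = 0.00372).

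Hoxa3, required for thymus and parathyroid development, had 13.6, 16.0, 16.4, 11.7 and 10.1 FPKM in labelled knockouts, against 2.53, 4.57 and 1.77 FPKM in hindstomach controls. The groups did not overlap, and the log2 fold change was 1.92 (SE 0.25, adjusted p = 0.000995). Hoxa2, which patterns the hindbrain and pharyngeal arches, had 9.20, 11.0, 7.37, 13.8 and 11.3 FPKM in labelled knockouts, against 3.13, 6.20 and 1.92 FPKM in hindstomach controls. Control replicate 3 came close to labelled knockout 3 without crossing it, and the log2 fold change was 1.35 (SE 0.28, adjusted p = 0.0115).

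In HOXB the same comparison gave 3 calls. Hoxb3, a hindbrain patterning gene, had 12.6, 9.85, 9.32, 15.3 and 7.54 FPKM in labelled knockouts, against 1.86, 4.79 and 1.04 FPKM in hindstomach controls, a log2 fold change of 1.84 (SE 0.34, adjusted p = 0.00662). Hoxb4, best known for its effect on blood stem cells, had 7.44, 7.36, 6.24, 10.7 and 6.61 FPKM in labelled knockouts, against 2.53, 3.70 and 0.913 FPKM in hindstomach controls, a log2 fold change of 1.43 (SE 0.28, adjusted p = 0.00922). Neither gene overlapped between the groups, and both were highest in labelled knockout 4. Hoxb2, another hindbrain patterning gene, had 5.52, 5.18, 5.25, 7.41 and 4.98 FPKM in labelled knockouts, against 1.11, 1.86 and 0.529 FPKM in hindstomach controls, a log2 fold change of 1.66 (SE 0.28, adjusted p = 0.00395).

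Hoxc4, known in the mouse for defects of the oesophagus when disrupted, was the most abundant member in both hindstomach groups. Its FPKM was 22.0, 36.6, 29.6, 13.1 and 15.6 in labelled knockouts, against 9.58, 11.7 and 9.31 in hindstomach controls. The groups did not overlap, but labelled knockout 4 stood only slightly above control 3. The log2 fold change was 1.03 (SE 0.29, adjusted p = 0.0368), and with each library's GC slope as a covariate it was 0.55 and did not pass (adjusted p = 0.149). It also failed to pass in 6 of the 8 fits that each left out a library of this comparison, where its fold change stayed between 0.85 and 1.13.

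The members that did not pass are given by paralog number, and the fold changes of the low and high numbers overlapped. Among those numbered 1 to 5, Hoxb5, Hoxc5 and Hoxd3 had log2 fold changes between 0.73 and 1.12 with adjusted p between 0.0621 and 0.0949. The 6 tested members numbered 6 to 9 had fold changes between 0.18 and 0.86, with adjusted p from 0.0523 for Hoxd8 to 0.504 for Hoxc8. These are genes with low values, whose changes FPKM + 1 understates. With a pseudocount of 0.1, Hoxb7 and Hoxd8 were called higher too. Hoxd8 did not overlap between the groups, with 2.27, 0.577, 1.51, 1.11 and 0.432 FPKM in labelled knockouts, against 0.0668, 0.317 and 0.0631 FPKM in hindstomach controls. It reached 1 FPKM in 3 labelled knockouts, 2 forestomach controls and no other library. Hoxd8 thus passed the filter only with the labelled knockouts, and its higher level there was partly fixed by the filter. Together 9 of 18 members were higher with no overlap, against 17.7% of all tested genes; 24.9% were lower without overlap and 42.6% one way or the other.

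The count of 8 depended on single libraries. Without the library labelled knockout 5, whose Gata4 was near the control level, 11 members rose, the 8 above with Hoxb7, Hoxd3 and Hoxd8. Without hindstomach control 4, the library with the lowest Hox sum, 4 rose, and Hoxa2, Hoxb3, Hoxb4 and Hoxc4 no longer passed. Counts over all genes in these fits are not given here, so these member counts do not single out the Hox genes.

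**Figure D3:**
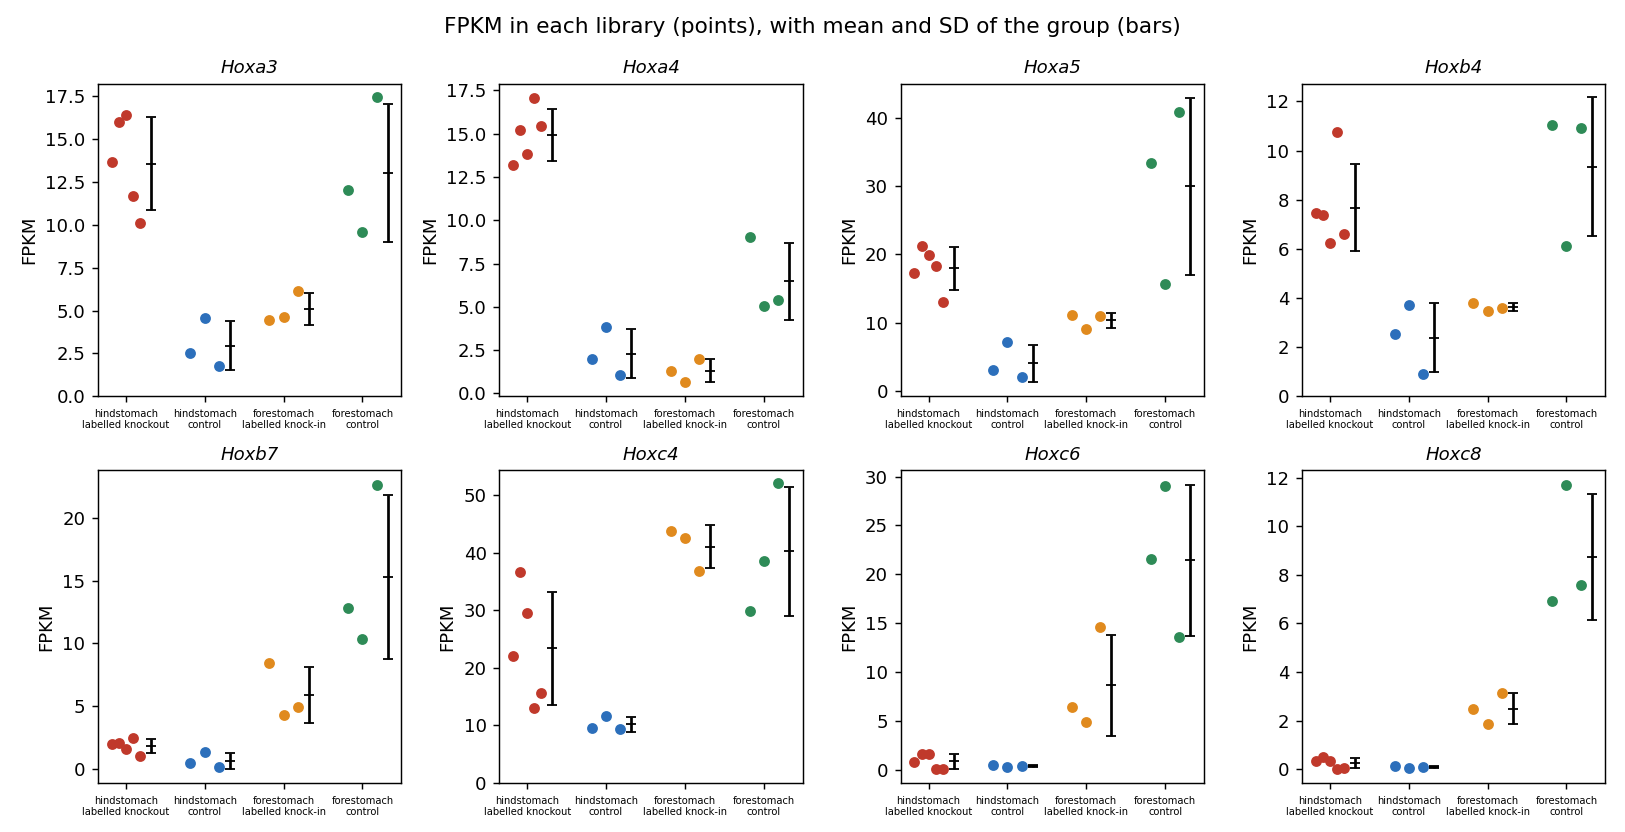
FPKM of 8 Hox genes in each library (points, in order of replicate number) with the group mean and SD (bars), for hindstomachs labelled knockout, hindstomach controls, forestomachs labelled knock-in and forestomach controls. Hoxa4 lies between 13.2 and 17.1 FPKM in labelled knockouts and between 1.05 and 3.85 FPKM in hindstomach controls, whereas Hoxc8 stays at or below 0.510 FPKM in both hindstomach groups.

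In the forestomach, libraries labelled knock-in were set against their controls. Of the 18 members 6 fell and 0 rose, namely Hoxa2, Hoxa3, Hoxa4, Hoxb6, Hoxb8 and Hoxc8, against 5.85% of all tested genes called, 3.22% lower and 2.62% higher. The fold change was below 0 for 17 of 18 members, and Hoxc4, at 0.06 (adjusted p = 0.891), was the exception. The members' median was -1.16, while the median of all tested genes was itself -0.37. With FPKM rescaled to a common sum the medians were -0.82 for members and -0.04 for all genes with 17 of 18 members below 0, and with quantile normalization -0.69 and 0.08 with 15 of 18 below 0.

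Hoxb6, a gene of the trunk region, was listed at 0.987, 1.16 and 1.40 FPKM in labelled knock-ins, against 7.77, 5.02 and 4.68 FPKM in forestomach controls, and fell by 1.62 (SE 0.22, adjusted p = 0.00227). Hoxc8, which patterns thoracic vertebrae and motor neurons, had 2.50, 1.84 and 3.12 FPKM in labelled knock-ins, against 6.91, 11.7 and 7.59 FPKM in forestomach controls, and fell by 1.47 (SE 0.23, adjusted p = 0.00507). Both genes were separated between the groups with no overlap. Hoxb6 reached 1 FPKM in 2 labelled knock-ins, 3 forestomach controls and no other library. It thus passed the filter only with the forestomach controls, and its lower level in labelled knock-ins was partly fixed by the filter. Hoxb8, known for roles in myeloid cells and microglia, had 2.41, 1.15 and 2.66 FPKM in labelled knock-ins, against 6.29, 4.99 and 5.60 FPKM in forestomach controls, and fell by 1.14 (SE 0.26, adjusted p = 0.0319).

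In HOXA, Hoxa2 had 2.97, 1.62 and 3.16 FPKM in labelled knock-ins, against 12.1, 9.33 and 10.6 FPKM in forestomach controls, a log2 fold change of -1.72 (SE 0.31, adjusted p = 0.0125). Hoxa4 had 1.29, 0.670 and 1.97 FPKM in labelled knock-ins, against 9.05, 5.04 and 5.37 FPKM in forestomach controls, a log2 fold change of -1.70 (SE 0.31, adjusted p = 0.0134). Labelled knock-in 2 was the lowest library for both genes. Hoxa3 had 4.47, 4.62 and 6.13 FPKM in labelled knock-ins, against 12.02, 9.58 and 17.4 FPKM in forestomach controls, a log2 fold change of -1.18 (SE 0.28, adjusted p = 0.0367).

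Several further members lay apart without passing the test. Hoxa5 had 11.1, 9.09 and 10.9 FPKM in labelled knock-ins, against 33.4, 15.7 and 40.9 FPKM in forestomach controls, with an adjusted p of 0.0519. Hoxb2 had 6.38, 3.32 and 3.99 FPKM in labelled knock-ins, against 11.5, 6.91 and 16.2 FPKM in forestomach controls, with an adjusted p of 0.0518. For both genes the controls were spread more widely than the labelled knock-ins. Hoxb4 had 3.78, 3.46 and 3.59 FPKM in labelled knock-ins, against 11.0, 6.10 and 10.9 FPKM in forestomach controls, with an adjusted p of 0.054. In all, 14 of 18 members were lower with no overlap, against 12.2% of all tested genes; 7.78% were higher without overlap and 20.0% one way or the other.

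Hoxc4 ran at 43.7, 42.6 and 36.9 FPKM in labelled knock-ins, against 29.9, 38.6 and 52.2 FPKM in forestomach controls, so the groups overlapped. It lies beside Hoxc5, which had 14.9, 11.6 and 22.4 FPKM in labelled knock-ins, against 38.4, 40.5 and 20.9 FPKM in forestomach controls, overlapping in a single pair of libraries. Whether Hoxc4 and its neighbour responded differently was not tested.

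The count of 6 also depended on the libraries fitted. A limma fit of the 6 forestomach libraries alone called 0 members and 0 genes, with 15 members and 1932 genes at an unadjusted p under 0.05. Leaving out forestomach control 5, whose GC slope of -0.61 stood apart from 0.82 and 0.62 in the other controls, gave 13 members lower, and leaving out labelled knock-in 4 gave 12. Leaving out labelled knock-in 1 gave 3, and leaving out labelled knock-in 2 or forestomach control 2 gave 2 each. For the fits with a library left out, counts over all genes are not given here. Their member counts thus do not single out the Hox genes.

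**Figure D4:**
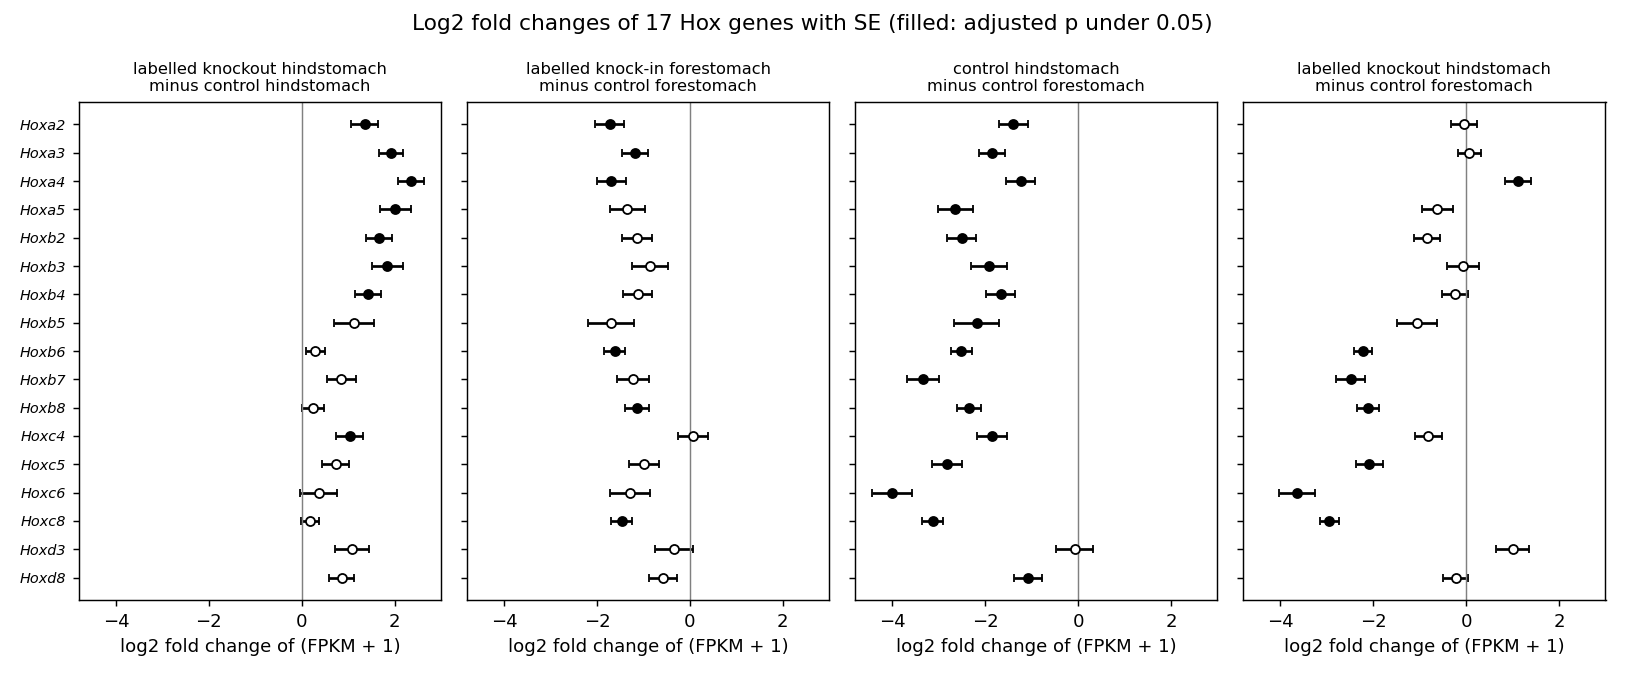
Log2 fold change of FPKM + 1 with its SE for 17 of the 18 tested Hox genes in 4 comparisons (columns); filled points passed at a limma adjusted p under 0.05. All 17 points lie above 0 for labelled knockout minus control hindstomach and 16 lie below 0 for labelled knock-in minus control forestomach; the third panel spans -4.00 for Hoxc6 to -0.08 for Hoxd3.

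Between the control regions, 16 of 18 members were lower in the hindstomach than in the forestomach and 0 were higher, against 20.3% of all tested genes called, 10.7% lower and 9.70% higher. All 18 fold changes were below 0. The members' median was -2.05, against 0.14 over all tested genes, and Hoxd3 was among those not called. Hoxb6, Hoxb8, Hoxc6, Hoxc8 and Hoxd8 reached 1 FPKM in no hindstomach control and passed the filter through other groups, Hoxb6 and Hoxc8 through forestomach libraries alone. Their lower level in the hindstomach was thus partly fixed by the filter.

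Hoxc6, a thoracic patterning gene, differed by the most, with 0.461, 0.233 and 0.334 FPKM in hindstomach controls, against 21.6, 29.1 and 13.6 FPKM in forestomach controls, a log2 fold change of -4.00 (SE 0.44, adjusted p = 5.93e-05). Hoxb7 had 0.415, 1.31 and 0.109 FPKM in hindstomach controls, against 12.9, 10.3 and 22.7 FPKM in forestomach controls, a log2 fold change of -3.33 (SE 0.35, adjusted p = 4.47e-05). In both genes the regions were far apart with no overlap. Hoxc8 had 0.137, 0.0332 and 0.108 FPKM in hindstomach controls, where forestomach controls held the values given above, a log2 fold change of -3.13 (SE 0.23, adjusted p = 2.83e-06).

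Hoxc5 had 3.11, 4.68 and 3.44 FPKM in hindstomach controls, beside the forestomach control values above, and was lower by 2.81 on the log2 scale (a fold change of -2.81, SE 0.32, adjusted p = 8.29e-05). Hoxb6 had 0.0879, 0.352 and 0.103 FPKM in hindstomach controls and Hoxb8 had 0.162, 0.693 and 0.103 FPKM. Their fold changes were -2.51 for Hoxb6 (adjusted p = 1.21e-05) and -2.35 for Hoxb8 (adjusted p = 6.3e-05). Hoxb5, which acts in enteric neural crest cells, had 0.902, 3.27 and 0.240 FPKM in hindstomach controls, against 14.54, 8.02 and 5.71 FPKM in forestomach controls, a log2 fold change of -2.18 (SE 0.49, adjusted p = 0.00693).

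Fold changes of the low-numbered members covered a wide range. Hoxa5 and Hoxb2 had fold changes of -2.64 (adjusted p = 0.000357) and -2.51 (adjusted p = 0.000156) between the regions. Hoxa2 and Hoxa4 had -1.39 (adjusted p = 0.00748) and -1.24 (adjusted p = 0.014), and Hoxd8, a higher-numbered gene, had -1.08 (adjusted p = 0.0227). Hoxd3, a cervical patterning gene, had 0.750, 3.64 and 0.497 FPKM in hindstomach controls, against 1.51, 1.88 and 0.975 FPKM in forestomach controls. Its ranges overlapped, with hindstomach control 3 the highest of the 6 libraries. Non-overlap held for 16 members, against 18.4% of all tested genes lower without overlap, 23.0% higher and 41.4% one way or the other.

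Hindstomachs labelled knockout were also set against control forestomachs, a comparison chosen after the data were seen, which shares its libraries with those above. The 12 tested members numbered 1 to 5 had fold changes between -2.08 and 1.12, and 10 of them did not pass. Hoxa2, Hoxa3, Hoxb3 and Hoxb4 had fold changes of -0.04, 0.07, -0.07 and -0.23. Hoxa5 at -0.62 (adjusted p = 0.24), Hoxb2 at -0.85 (adjusted p = 0.0641), Hoxc4 at -0.82 (adjusted p = 0.0811), Hoxb5 at -1.06 (adjusted p = 0.128) and Hoxd3 at 1.003 (adjusted p = 0.0839) lay farther from 0 without passing. Of the 6 tested members numbered 6 to 9, 5 were called lower, and Hoxd8, at -0.22 (adjusted p = 0.615), overlapped between the groups. Hoxb6 and Hoxc8, which passed the filter through forestomach libraries alone, are among these 5. Hoxb8 and Hoxc6, also among them, reached 1 FPKM in 1 and 2 of the 5 labelled knockouts and in no hindstomach control. They too would have missed the filter without the forestomach. The lower level of these genes in labelled knockouts was thus partly fixed by the filter. In all 6 members were lower and 1, Hoxa4, was higher, against 13.9% of all tested genes called, 5.55% lower and 8.34% higher.

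Among the called members of HOXC, Hoxc6 had 0.784, 1.62, 1.60, 0.104 and 0.122 FPKM in labelled knockouts 1 to 5, under every forestomach control, with a fold change of -3.64 (SE 0.39, adjusted p = 0.000135). Hoxc8 had 0.329, 0.510, 0.344, 0.0222 and 0.0393 FPKM in labelled knockouts, with a fold change of -2.95 (SE 0.20, adjusted p = 3.76e-06). The labelled knockouts 4 and 5 were the lowest for both HOXC genes and for Hoxc4 and Hoxc5. Their GC slopes were 0.09 and 0.49, against -0.57 to -0.42 in labelled knockouts 1 to 3, and the part of that slope in the HOXC values was not tested.

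Hoxb7 had 1.96, 2.03, 1.60, 2.48 and 1.04 FPKM in labelled knockouts, with a fold change of -2.48 against control forestomachs (SE 0.31, adjusted p = 0.000366). Hoxb6 stood between 0.132 and 0.858 FPKM in labelled knockouts, with -2.21 (adjusted p = 2.74e-05), and Hoxb8 between 0.292 and 1.16 FPKM, with -2.11 (adjusted p = 0.000157). These 3 HOXB genes were lower in all 5 labelled knockouts than in any forestomach control. Hoxc5, at 4.58 to 10.8 FPKM in labelled knockouts, was the single called member numbered under 6 that was lower, with -2.08 (adjusted p = 0.000709). Hoxa4 was higher by 1.12 (SE 0.28, adjusted p = 0.0193), and this call was lost without forestomach control 3 (adjusted p = 0.0772) and with a pseudocount of 0.1 (adjusted p = 0.0564). Without overlap 2 members were higher and 7 lower, against 11.5% and 6.81% of all tested genes, 18.3% together.

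Members under the FPKM filter were read as well. Hoxa7 had 0.552, 0.170 and 0.362 FPKM in labelled knock-ins, against 1.60, 1.06 and 0.703 FPKM in forestomach controls, and never exceeded 0.0973 FPKM in the hindstomach. Hoxa9 and Hoxb9 had means of 0.155 and 0.423 FPKM in labelled knock-ins, against 0.861 and 1.19 FPKM in forestomach controls. In a fit with no filter these 3 genes were called lower in labelled knock-ins (adjusted p = 0.0305, 0.000716 and 0.032 for Hoxa7, Hoxa9 and Hoxb9) and in hindstomach controls (adjusted p = 0.000378, 1.53e-05 and 0.000483), each against forestomach controls. In the same fit none of the low members was called between labelled knockouts and hindstomach controls, where Hoxd1 had the smallest adjusted p, 0.0806. Counts over all genes with no filter are not given here, so these calls do not single out the Hox genes. Hoxd4 ran at 0.0742 to 1.16 FPKM in the hindstomach and at 0 to 0.410 FPKM in the forestomach, and it shares 388 exonic bases on the same strand with Hoxd3, so fragments of this pair may be split uncertainly. Hoxc5 shares 166 exonic bases with Hoxc10, which was listed at 0 throughout. Between transcripts of different members the longest identical run was 52 bases over 741 pairs.

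Companion genes of the Hox system were read from lists chosen with earlier results known. Among the TALE cofactors, 2 of 8 rose in labelled knockouts and 0 fell. Meis1 averaged 49.9 ± 6.88 FPKM in labelled knockouts (SD, n = 5) and 21.0 ± 4.62 FPKM in hindstomach controls (SD, n = 3), a log2 fold change of 1.22 (adjusted p = 0.000991). Pbx3 averaged 16.7 ± 2.28 FPKM in labelled knockouts and 9.19 ± 0.277 FPKM in hindstomach controls, with 0.79 (adjusted p = 0.00539). Between control regions 3 of 8 were lower in the hindstomach, Meis1 at -1.45, Pbx3 at -0.84 and Pknox2 at -1.28, and 5 were lower with the GC slope as a covariate. That covariate raised the genes called between control regions from 2583 to 5327 of 12694. In labelled knock-ins 1 of 8 fell, Meis2 at -1.09 (adjusted p = 0.0337), with 14.6 ± 4.02 FPKM against 32.2 ± 8.60 FPKM in forestomach controls (SD, n = 3 each).

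Of 14 tested genes of retinoic acid signalling, 2 rose and 2 fell in labelled knockouts, and 6 rose and 1 fell with the GC slope as a covariate. Rarb, a retinoic acid receptor, averaged 29.1 ± 4.29 FPKM in labelled knockouts and 12.1 ± 2.71 FPKM in hindstomach controls (1.21, adjusted p = 0.00117). Aldh1a2, the retinoic acid synthesis enzyme of embryonic mesenchyme, averaged 19.3 ± 6.50 FPKM in labelled knockouts and 5.71 ± 4.41 FPKM in hindstomach controls (1.73, adjusted p = 0.0204). Both of these rose, while Aldh1a1, a related synthesis enzyme, fell by 1.38 (adjusted p = 0.00492). In labelled knock-ins 1 rose and 3 fell, with Aldh1a1 at 2.54, Aldh1a2 at -2.16 and the retinoic acid degrading enzyme Cyp26a1 at -1.50. Between control regions 1 was higher and 4 lower in the hindstomach, among them Rarb at -1.21, Cyp26a1 at -1.99 and Aldh1a2 at -2.93. With the GC slope as a covariate 2 were higher and 10 lower between these regions, in a fit that called 5327 of 12694 genes.

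Regulators of chromatin at Hox loci are read against the 13.2% of all tested genes called in labelled knockouts, 5.85% in labelled knock-ins and 20.3% between control regions. Of 19 Polycomb genes 0 rose and 1 fell in labelled knockouts, Cbx7 at -1.68 (adjusted p = 0.0203), and none was called in labelled knock-ins by limma, where Suz12 at 0.99 (adjusted p = 0.0628) and Ezh2 at 0.47 (adjusted p = 0.0984) were named for their level. Between control regions Cbx7 was higher in the hindstomach, at 1.69, and 1 of 19 was higher and 1 lower, against 5 and 3 with the GC slope as a covariate. The counts with the covariate are read against 5327 of 12694 genes called in that fit, in place of 2583. Of 11 genes of the Trithorax group and H3K27 demethylases, Kdm6b fell in labelled knockouts (-1.15, adjusted p = 0.0498) and Kdm6a rose in labelled knock-ins (0.86, adjusted p = 0.0305). Between control regions 2 of the 11 were higher in the hindstomach, Kdm6a at 0.67 and Kmt2c at 0.64. Of the ParaHox and Cdx genes only Pdx1, a posterior foregut factor, passed the filter, and it averaged 0.211 ± 0.293 FPKM in labelled knockouts and 1.63 ± 0.407 FPKM in hindstomach controls (-1.14, adjusted p = 0.0025).

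Genes that flank the clusters were tested in 3 cases, Skap2 and Snx10 beside HOXA and Mtx2 beside HOXD. In labelled knockouts none was called, with Skap2 at 0.51 (adjusted p = 0.0758), Mtx2 at 0.47 (adjusted p = 0.198) and Snx10 at 0.13 (adjusted p = 0.639). In labelled knock-ins Skap2 fell by 1.34 (adjusted p = 0.00479). In control hindstomachs Skap2 was lower than in control forestomachs (-1.01, adjusted p = 0.0037) and Snx10 was higher (1.25, adjusted p = 0.00232).

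Group medians of the summed mesenchyme markers had the same order as those of the Hox sums. Within the labelled knockouts the orders differed. Labelled knockout 2 had the highest Hox sum of its group, 152 FPKM, with 346 FPKM of these markers. Labelled knockout 1 had a Hox sum of 124 FPKM with 867 FPKM of them. The libraries are labelled epithelial, and Epcam, a marker of epithelium, was present at 121 FPKM or more in each, yet 18 of 20 mesenchyme markers passed the filter. Of these 18, 9 rose and 0 fell in labelled knockouts, 0 rose and 3 fell in labelled knock-ins, and 16 were lower in hindstomach than in forestomach controls. With the GC slope as a covariate these counts were 6, 1 and 18, where 1555, 696 and 5327 of 12694 genes were called. Their summed level was 305 to 867 FPKM in labelled knockouts and 66.2 to 220 FPKM in hindstomach controls, and 245 to 637 FPKM in labelled knock-ins and 844 to 1359 FPKM in forestomach controls. Thy1 and Mfap5 were the markers listed at 0 in any library. In bulk RNA, fewer cells of a type and less RNA per cell cannot be told apart.

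Set beside these markers, paralogs 1 to 5 stood at 13.6 to 42.2 FPKM per 100 FPKM of mesenchyme markers in labelled knockouts and at 25.0 to 36.5 in hindstomach controls. The same ratio was 15.8 to 34.5 in labelled knock-ins and 14.4 to 18.2 in forestomach controls, so neither labelled group separated from its controls. Every hindstomach control lay above every forestomach control in this ratio, although the Hox sums of hindstomach controls were lower. Of 12 tested transcription factors of stomach mesenchyme, 6 rose in labelled knockouts, among them Foxf1 at 2.03 and Six2 at 1.70, 1 fell in labelled knock-ins, Tcf21 at -2.24, and 1 was higher and 8 lower in control hindstomachs than in control forestomachs. Enteric neuron and glia markers summed to 136 to 257 FPKM in labelled knockouts and 28.9 to 97.8 FPKM in hindstomach controls, and to 46.2 to 101 FPKM in labelled knock-ins and 124 to 171 FPKM in forestomach controls. Pan-epithelial markers summed to 511 to 970 FPKM in labelled knockouts and 1220 to 1461 FPKM in hindstomach controls, yet 0 of 10 were called by limma. Of these 10, 5 had an unadjusted limma p under 0.05, against 4908 of 12694 tested genes. In the forestomach they summed to 547 to 912 FPKM in labelled knock-ins and 421 to 793 FPKM in controls, and 2 of 10 rose. Smooth muscle markers were called higher in labelled knockouts for 2 of 10 tested. In labelled knock-ins none was called, but their median log2 fold change was -2.13, against -0.37 over all tested genes. Of these 10 markers, 9 had an unadjusted limma p under 0.05, against 4629 of 12694 tested genes. Mesothelium markers were higher for 3 and lower for 1 of 7 in labelled knockouts and lower for 4 of 7 in labelled knock-ins. The part of these cell type markers in the Hox differences was not tested.

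**Figure D5:**
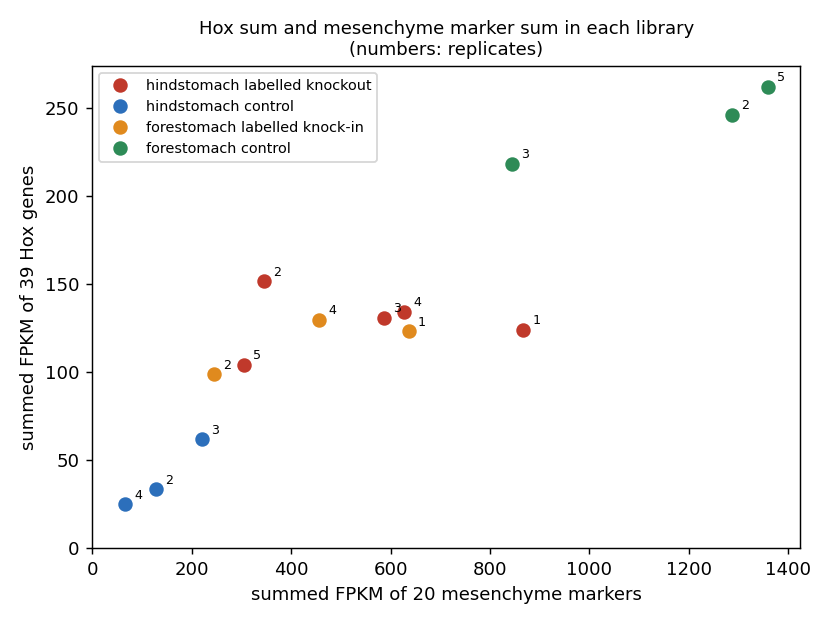
Summed FPKM of the 39 Hox genes (vertical) against the summed FPKM of 20 mesenchyme markers (horizontal) in each of the 14 libraries, coloured by group and numbered by replicate. Hindstomach controls lie lowest on both axes, at 25.0 to 61.9 Hox FPKM, and forestomach controls highest, at 218.5 to 262 Hox FPKM, with labelled knockouts at 104 to 152 and labelled knock-ins at 98.8 to 130 in between.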

How the data were processed

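The authors deposited a table of FPKM values per gene and library. Per the labels' protocols, RNA was isolated on NucleoSpin columns and libraries were made with the directional NEBNext Ultra II kit. The genome build was mm9 per the submitters' processing notes; no source used here names the aligner, the annotation or how strand was used in counting. Of 22906 rows, 108 exact duplicates were dropped. Values were analysed as log2(FPKM + 1) without further scaling, keeping genes with at least 1 FPKM in at least 3 libraries. All 14 libraries entered a limma 3.58.1 fit (R 4.3.3) with 1 mean per group and eBayes with trend and robust options, and p-values were adjusted by Benjamini and Hochberg over 12694 genes. The fit was tested on simulated data. Promoters and their build came from RefSeq, and GC content and exon overlaps from GENCODE on a build other than the authors'. Members passing in any comparison were named with each library's value, and of each companion list up to 3 called genes, or else the 2 highest. Members and lists were chosen with earlier results of these data known. Results for some genes are not reported here.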

Additional observations from a re-analysis of the deposited data

Results flagged for a closer look

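Of 21 values checked over the 5 libraries labelled knockout, 5 had a library standing far from the other 4. The values were the 18 tested members with sums and a share of Hox genes. Chance gives about 1 in 20 for a single value. These values share libraries and genes, so their count cannot be set against that rate. Labelled knockout 4 was the highest for Hoxb2 (7.41 FPKM), Hoxb4 (10.7 FPKM), Hoxb8 (1.16 FPKM) and Hoxd3 (7.16 FPKM). The sum of paralogs 6 to 9 was lowest in labelled knockout 5, at 2.83 FPKM. Labelled knockout 4 also had the highest enteric marker sum of its group (257 FPKM) and the highest sum of stomach mesenchyme transcription factors (160 FPKM), and their part in these values was not tested.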

How the results depend on the processing

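In the hindstomach comparison of labelled knockouts with controls, the 8 members called became 16 with array weights, whose estimation stopped before reaching its tolerance, and 2 with a replicate block; leaving out each library gave 4 to 11. For labelled knock-ins the 6 called became 3 with quantile normalization, 0 in the fit of the compared groups alone, 12 with array weights and 0 with a replicate block (13 at an unadjusted p under 0.05); leaving out each library gave 2 to 13. The cause of these shifts was not tested. Same-numbered labelled knockouts and hindstomach controls deviated with correlations of 0.03, 0.06 and -0.26. Over all groups, same-numbered libraries ran from -0.87 (labelled knockout 5, forestomach control 5) to 0.55 (labelled knockout 1, labelled knock-in 1). Differently numbered libraries ran from -0.80 to 0.82. With so few pairs and such wide ranges, these correlations cannot tell whether the numbers pair the libraries. The replicate block also ended the call of Hoxa4 in labelled knockouts against control forestomachs (adjusted p = 0.121). Calls between control regions numbered 11 to 19 (the 19 of 34 members tested with no filter) and those of labelled knockouts against control forestomachs 5 to 10 under every alternative run. Over all genes the count of 2583 between control regions moved between 1369 and 5870. The count of 1764 for labelled knockouts against control forestomachs moved between 542 and 9162. No member called in these comparisons reversed its direction. With the GC slope as a covariate 8, 8 and 16 members were called in the labelled knockouts, labelled knock-ins and control regions, of which 7, 5 and 16 were shared with the fit without it. The covariate fit called 1555, 696 and 5327 of all tested genes in these comparisons. Over all genes the knockout count of 1680 moved between 234 and 9688, and the knock-in count of 742 between 0 and 10680. The replicate block gave 234 and 19 genes, quantile normalization 2480 and 489, and the compared groups alone 4991 and 0. Counts over all genes with array weights, with no filter or with a library left out are not matched to the member counts here. Those member counts are therefore not read as results about the members. Absolute depth is unknown, which limits what values under 1 FPKM can show.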
